A study of Homo sapiens with 6 samples.

Results

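The peaks on human chromosome 16 were taken from maps of γH2AX (histone H2AX after phosphorylation) made by chromatin immunoprecipitation and sequencing (ChIP-seq). Every peak listed on chromosome 16 was a member: 944 of the 12579 peaks in 4 deposited lists. Of these, 541 came from the KO pemetrexed list, 273 from the KO cisplatin list, 85 from the WT cisplatin list and 45 from the WT pemetrexed list. No member was filtered out, and no contig of unknown place entered. The files give a chromosome, a start and an end for each peak in build hg18, with no height, score or read count.

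DLD1, a long-established line from a human colorectal tumour, was used as UNG+/+ (wild type, WT) or UNG-/- (knockout, KO) cells. Each genotype was left untreated or was given pemetrexed or cisplatin, and each of the 6 groups was 1 library. The 2 untreated libraries were not analysed here. Doses, treatment times, the control library behind each list and whether the knockout line was 1 clone were not given in the sources used here.

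H2AX becomes phosphorylated over a stretch of chromatin on both sides of a DNA double strand break, so its ChIP signal marks a neighbourhood of a break rather than a point. UNG, uracil DNA glycosylase, cuts uracil out of DNA as the opening step of base excision repair. Pemetrexed is an antifolate that blocks thymidylate synthesis and thereby favours the use of dUTP in place of dTTP, while cisplatin forms crosslinks between purine bases. Chromosome 16 is gene-rich for its size. It carries the alpha-globin genes near the tip of its short arm, many segmental duplications on the short arm, a large block of heterochromatin beside the centromere on the long arm, and the common fragile site within WWOX on the long arm. No hg18 sequence or annotation was used here, so no peak was assigned to a gene, exon, intron or repeat, and these landmarks are background only.

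Across the chromosome the lists differed in how they lay more than in which arm they used. The KO pemetrexed peaks were packed into both tips of the chromosome and a few interior blocks. The KO cisplatin peaks lay in much the same blocks at a lower number and were spread over more of the interior. The WT cisplatin list was sparse and denser at the tips than elsewhere, whereas the WT pemetrexed list had its densest place at the long-arm edge of the stretch around the centromere. With 1 library per group there is no replicate check and no test between conditions. All intervals below are exact 95% intervals that cover counting error only, and they treat neighbouring peaks as independent.

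**Figure D1:**
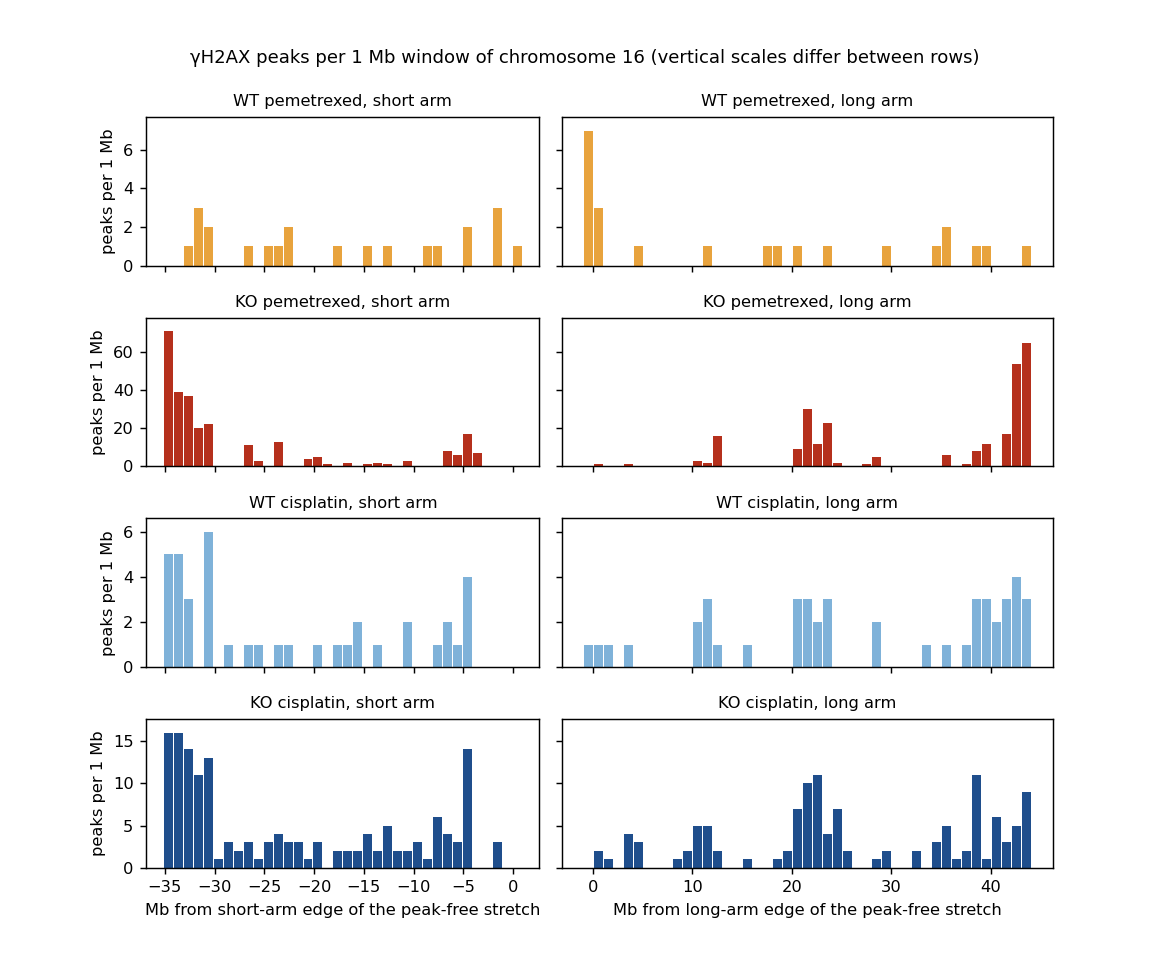
Peaks per 1 Mb window of chromosome 16 (vertical axis, by peak midpoint) against distance from the short-arm or long-arm edge of the longest stretch without a peak (horizontal axis, Mb), 1 row per list and with a different vertical scale in each row. KO pemetrexed reached 71 peaks in a window at the short-arm tip and 65 at the long-arm tip, and the tallest WT pemetrexed bar, 7 peaks, stands at the long-arm edge of the peak-free stretch.

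The positions of the lists themselves set the limits used here. The first position covered by any list was 25140 and the last 88606527, a span of 88.6 Mb. The longest stretch without a peak of any list ran from 35116304 to 44943249 (9.83 Mb). It was taken as the stretch holding the centromere and the neighbouring heterochromatin. It was not checked against a gap annotation, and both of its edges are WT pemetrexed peaks, so that list has a peak at distance 0 on either side by construction. It divided the chromosome into a short arm of 35.1 Mb and a long arm of 43.7 Mb. Each arm was cut into an end (the outer 5 Mb), a side of the peak-free stretch (the inner 5 Mb) and an interior.

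By arm, the lists were close to one another. The short arm held 22 of the 45 WT pemetrexed peaks (48.9%, interval 33.7 to 64.2%) and 40 of the 85 WT cisplatin peaks (47.1%, 36.1 to 58.2%). It held 273 of the 541 KO pemetrexed peaks (50.5%, 46.2 to 54.8%) and 152 of the 273 KO cisplatin peaks (55.7%, 49.6 to 61.7%). These 4 intervals overlapped, so no difference between lists in the share of the arms was resolved at these numbers.

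Within the arms the lists separated. The outer 5 Mb of both ends, 12.7% of the arms, held 339 of the 541 KO pemetrexed peaks (62.7%, interval 58.4 to 66.8%). For cisplatin they held 35 of 85 peaks in WT (41.2%, 30.6 to 52.4%) and 99 of 273 in KO (36.3%, 30.6 to 42.3%). Of the WT pemetrexed list they held 8 of 45 peaks (17.8%, 8.0 to 32.1%). The KO pemetrexed interval lay above those of the other 3 lists. When peaks within 100 kb of each other were joined, its share at the ends was 23.5% (14.1 to 35.4%), since joining turns each dense run into 1 region, and it then overlapped the KO cisplatin share of 20.1% (13.7 to 28.0%).

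**Figure D2:**
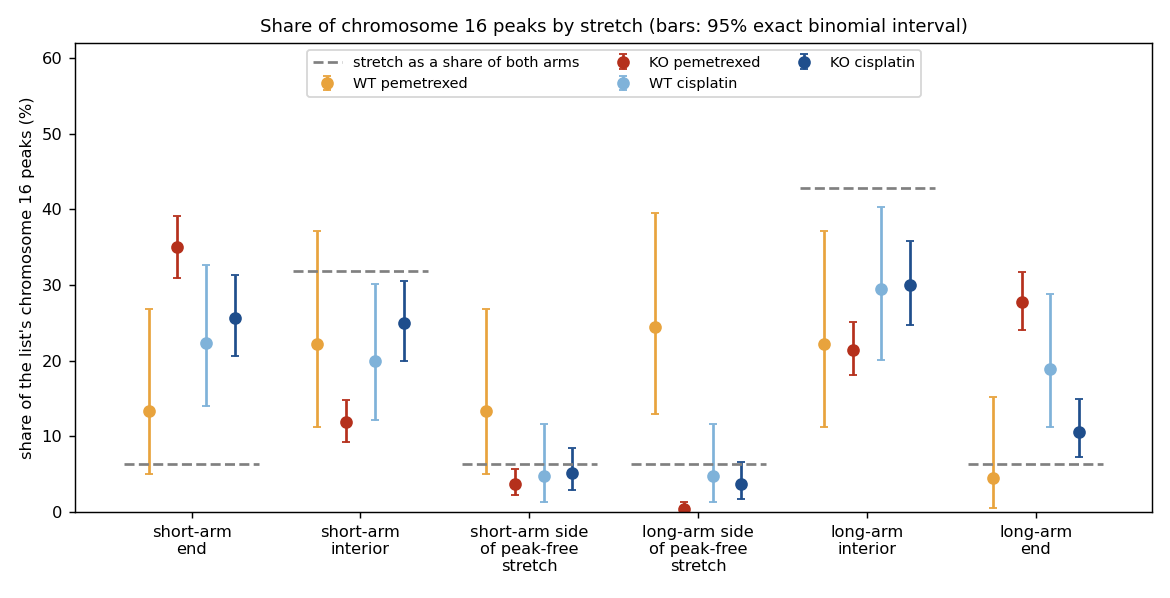
Share of each list's chromosome 16 peaks (vertical axis, %) in 6 stretches of the chromosome (horizontal axis), with 95% exact binomial intervals as bars and each stretch's share of both arms as a dashed line. KO pemetrexed stood highest at both ends, 34.9% and 27.7%, and WT pemetrexed at the long-arm side of the peak-free stretch, 24.4%.

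The short-arm end was the most densely marked stretch in 3 of the lists. KO pemetrexed had 189 peaks there, 37.8 per Mb, covering 401 kb or 8.01% of the 5 Mb. KO cisplatin had 70 peaks (14.0 per Mb, 66.9 kb), WT cisplatin 19 (3.80 per Mb, 15.6 kb) and WT pemetrexed 6 (1.20 per Mb, 3.71 kb). Both KO lists thus had more peaks here than the WT list of the same drug, by a ratio of 31.5 after pemetrexed (interval 14.2 to 86.9) and 3.68 after cisplatin (2.19 to 6.48). The pemetrexed ratio was 1.5 (0.477 to 5.12) and the cisplatin ratio 1.17 (0.501 to 2.76) with peaks within 100 kb joined, and neither interval then excluded 1.

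Along the short-arm end the KO pemetrexed number fell with distance from the tip. The first window (1 to 1000000) held 71 KO pemetrexed peaks covering 170 kb of it. The windows after it held 39, 37, 20 and 22, and the next 3 windows (5000001 to 8000000) held 0. KO cisplatin did not follow that slope. It had 16, 16, 14, 11 and 13 peaks in the same 5 windows, nearly level, and 6 peaks in the 3 windows beyond them. WT pemetrexed had no peak in the first 2 Mb, where KO pemetrexed had 110, KO cisplatin 32 and WT cisplatin 10. With 0.508 WT pemetrexed peaks per Mb over the chromosome, a 0 over 2 Mb says little, and 3 counts would be 6.67% of that list. The first WT pemetrexed peak on the chromosome lay at 2504870 to 2505364, while the first peaks of the other lists lay at 25140 (KO pemetrexed), 96613 (KO cisplatin) and 321797 (WT cisplatin).

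The long-arm end had the highest KO over WT ratio of the 6 stretches after pemetrexed, on 2 WT peaks and with an interval that overlapped that of the short-arm end. KO pemetrexed had 150 peaks in the last 5 Mb (30.0 per Mb, 385 kb, 7.69% of the stretch) and WT pemetrexed 2, a ratio of 75 (interval 20.4 to 625). After cisplatin the KO list had 29 peaks and the WT list 16, a ratio of 1.81 (0.952 to 3.57) that did not exclude 1, whereas peaks of at least 600 bp gave 2.42 (1.20 to 5.2), which did. Over the chromosome that width keeps 54 of 85 WT and 254 of 273 KO cisplatin peaks, which favours a higher ratio. The ratio for pemetrexed was 3.50 (0.666 to 34.5) with peaks within 100 kb joined. Both ends were therefore dense in KO pemetrexed, but KO cisplatin was not symmetrical, with 70 peaks at the short-arm end and 29 at the long-arm end.

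The KO pemetrexed peaks of the long-arm end lay mostly in its last 2 windows. The window 87000001 to 88000000 held 54 and the window 88000001 to 89000000, which the lists reach only to 88606527, held 65. Together they covered 336 kb with 119 peaks, against 14 peaks of KO cisplatin, 7 of WT cisplatin and 1 of WT pemetrexed. Moving inward, KO pemetrexed counts were 17 (86000001 to 87000000), 0 (85000001 to 86000000), 12 and 8. The empty window held 6 KO cisplatin and 2 WT cisplatin peaks. At this end the KO pemetrexed number was thus broken by an empty window.

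Counted from the last covered positions, the outermost 1 Mb of both arms held 170 KO pemetrexed peaks (31.4%, interval 27.5 to 35.5%). It held 27 KO cisplatin peaks (9.89%, 6.62 to 14.1%), 11 WT cisplatin peaks (12.9%, 6.64 to 22.0%) and 1 WT pemetrexed peak (2.22%, 0.0563 to 11.8%). Seen by distance, the median KO pemetrexed peak of the short arm lay 2.76 Mb from the first covered position and that of the long arm 2.35 Mb from the last. For KO cisplatin these medians were 7.98 and 19.8 Mb, for WT cisplatin 7.87 and 15.1 Mb, and for WT pemetrexed 15 and 32.4 Mb. KO pemetrexed had the shortest median distance in both arms and WT pemetrexed the longest. On the long arm, 10 of the 23 WT pemetrexed peaks were a run at the edge of the peak-free stretch, the place farthest from that end. The median without that run was not computed, so the rank of WT pemetrexed on the long arm is not separate from it.

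In the interiors, KO pemetrexed peaks came in blocks separated by long empty stretches. The short-arm interior held 64 KO pemetrexed peaks, 68 KO cisplatin, 17 WT cisplatin and 10 WT pemetrexed. The long-arm interior held 116, 82, 25 and 10 in the same order. In both interiors together the KO lists had 3.06 peaks per Mb for pemetrexed and 2.55 for cisplatin, where at the ends they had 33.9 and 9.90. The ratio of KO pemetrexed to KO cisplatin peaks was 0.941 (interval 0.658 to 1.34) in the short-arm interior. In the long-arm interior that ratio was 1.415 (1.06 to 1.90). The KO over WT ratio in the short-arm interior was 6.40 (interval 3.26 to 14.0) after pemetrexed and 4.0 (2.33 to 7.26) after cisplatin. In the long-arm interior it was 11.6 (6.09 to 24.8) and 3.28 (2.07 to 5.36). With peaks within 100 kb joined, the pemetrexed ratio was 2.3 (1.05 to 5.41) in the short-arm and 2.4 (1.11 to 5.62) in the long-arm interior, and with peaks of at least 600 bp it was 16 (5.95 to 60.5) and 28.2 (10.7 to 105). Over the chromosome that width removes a larger share of the WT than of the KO pemetrexed list.

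The largest interior block lay on the long arm, in the 4 windows from 65000001 to 69000000, a section chosen after the counts were seen. KO pemetrexed had 74 peaks there (13.7% of its peaks on the chromosome), KO cisplatin 32 (11.7%), WT cisplatin 11 (12.9%) and WT pemetrexed 2 (4.44%). The first 3 lists placed similar shares of their peaks in this block. Within it, KO pemetrexed counts by window were 9, 30, 12 and 23, and KO cisplatin counts 7, 10, 11 and 4, so their highest windows differed. Another block, at 57000001 to 58000000, held 16 KO pemetrexed peaks against 2 of KO cisplatin, 1 of WT cisplatin and 0 of WT pemetrexed.

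On the short arm a block of KO peaks at 30000001 to 32000000 straddled the limit of the inner 5 Mb. KO pemetrexed had 24 peaks in it and KO cisplatin 14, against 4 of WT cisplatin and 2 of WT pemetrexed. All 20 KO pemetrexed peaks counted on the short-arm side of the peak-free stretch belong to this block, and the nearest of them ended 3980 kb from the edge. They are therefore peaks of the outer part of that side and not peaks beside the edge. With sides of 2 Mb instead of 5 Mb, KO pemetrexed had 0 peaks on the short-arm side and WT pemetrexed 4.

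Close to the peak-free stretch the order of the lists turned. The inner 5 Mb of both arms held 17 of 45 WT pemetrexed peaks (37.8%, interval 23.8 to 53.5%) but 22 of 541 in KO pemetrexed (4.07%, 2.57 to 6.09%). After cisplatin they held 8 of 85 in WT (9.41%, 4.15 to 17.7%) and 24 of 273 in KO (8.79%, 5.71 to 12.8%). On the long-arm side WT pemetrexed had 11 peaks and KO pemetrexed 2, a KO over WT ratio of 0.182 (interval 0.0196 to 0.833), the only stretch of the 6 in which the KO list had fewer peaks than the WT list of the same drug. KO cisplatin had 10 peaks there and WT cisplatin 4 (ratio 2.5, 0.721 to 10.9), and peaks of at least 600 bp gave 9.0 (1.25 to 394) for cisplatin. Over the chromosome that width removes a larger share of the WT than of the KO cisplatin list.

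This reversal rested on 1 run of peaks, whose first peak also set the edge of the stretch. Of the 11 WT pemetrexed peaks, 10 lay in a run of 69.5 kb at the edge itself (44943249 to 45012734) and covered 8.64 kb. The ratio was 1 (0.0725 to 13.8) with peaks within 100 kb joined and 0.5 (0.0452 to 3.49) within 10 kb. They included the 3 widest WT pemetrexed peaks of the chromosome, 1518 bp (44945424 to 44946942), 1222 bp (44958306 to 44959528) and 1161 bp (44943249 to 44944410). Neither KO list had a peak within the run, and WT cisplatin had 1, at 44963900 to 44964274 inside a WT pemetrexed peak (44963677 to 44964275). Without the peaks within 100 kb of an edge, the KO over WT ratio on this side was 2.0 (0.104 to 118), and the share of WT pemetrexed peaks beside the stretch was 17.6% (6.76 to 34.5%).

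The nearest KO pemetrexed peak on the long-arm side, at 45229807 to 45231399, lay 287 kb from the edge, and the nearest KO cisplatin peak, at 45517899 to 45518504, lay 575 kb from it. On the short-arm side a single WT pemetrexed peak (35115752 to 35116304) set the edge. Between 33000001 and 34000000, 3 WT pemetrexed and 3 KO cisplatin peaks lay among each other with no peak of the other lists. Of the KO cisplatin peaks there, one of 4407 bp (33771965 to 33776372) was the widest of that list on the chromosome and one of 2511 bp (33807628 to 33810139) shared the next rank. The WT pemetrexed peaks lay at 33787665, 33802164 and 33929827, and none of them overlapped a KO cisplatin peak. Whether sequence repeated elsewhere in the genome drew reads to these places was not tested.

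**Figure D3:**
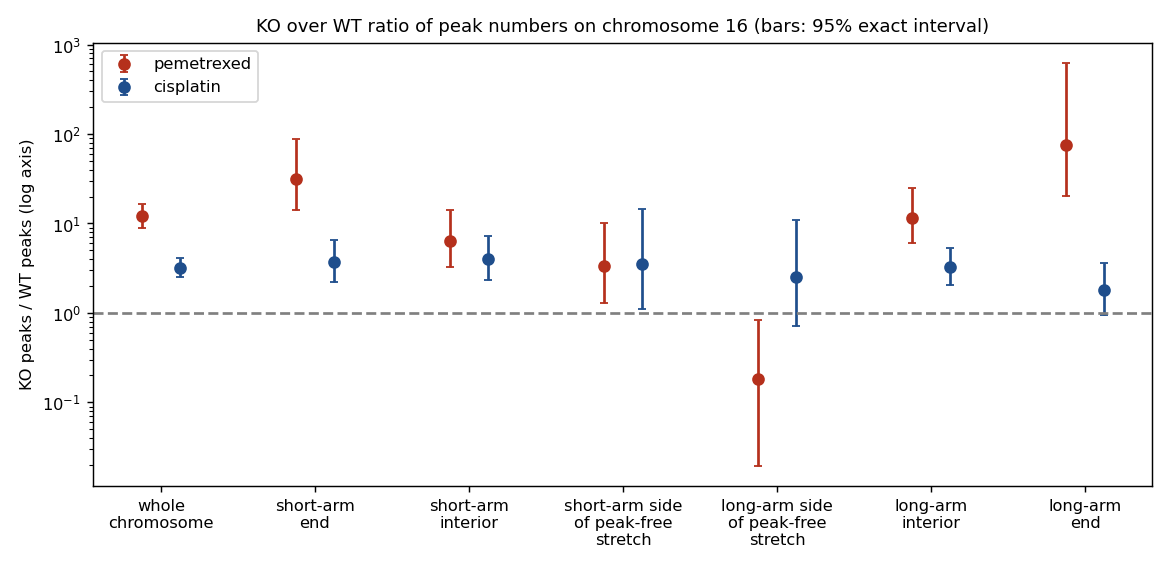
Ratio of KO to WT peak numbers (vertical axis, log scale) for the whole chromosome and its 6 stretches (horizontal axis), by drug, with 95% exact intervals as bars and a dashed line at equal numbers. The pemetrexed ratio ran from 75 at the long-arm end to 0.182 at the long-arm side of the peak-free stretch, while the cisplatin ratio ran from 1.81 to 4.0.

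Over the whole chromosome the KO over WT ratio was 12.0 after pemetrexed (interval 8.86 to 16.7) and 3.21 after cisplatin (2.51 to 4.15). For all other peaks of the lists it was 5.39 (5.01 to 5.80) and 2.495 (2.36 to 2.64). The ratio for pemetrexed was 3.74 times that for cisplatin (2.496 to 5.66). The pemetrexed ratio was 1.94 (1.27 to 3.01) and the cisplatin ratio 1.97 (1.46 to 2.68) with peaks within 100 kb joined. Without the outer 5 Mb of both ends they were 5.46 (3.83 to 7.98) and 3.48 (2.53 to 4.87), and with peaks of at least 600 bp 28.2 (17.9 to 47.1) and 4.70 (3.50 to 6.43). The 600 bp limit kept 19 of 45 WT and 535 of 541 KO pemetrexed peaks. After cisplatin it kept 54 of 85 WT and 254 of 273 KO peaks. Such unequal loss raises both ratios by construction. The difference between drugs was smaller away from the ends and when dense runs counted once. It was 1.57 (0.955 to 2.59) without the outer 5 Mb of both ends and 0.986 (0.581 to 1.69) with peaks within 100 kb joined, and neither of these intervals excluded 1.

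Window by window, KO pemetrexed exceeded WT pemetrexed in 36 of the 89 windows of chromosome 16 (40.4%), against 21.1% of the windows of all placed chromosomes. It was below WT pemetrexed in 14 windows (15.7%), close to the 15.9% over all chromosomes. After cisplatin the KO list exceeded the WT list in 54 windows (60.7%; 41.3% over all chromosomes) and was below it in 4 (4.49%; 9.99%). Windows without usable sequence are counted in all of these shares. In 13 of the 14 windows with fewer KO than WT peaks after pemetrexed the WT list had 3 peaks or fewer.

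KO pemetrexed was the longest list on the chromosome, yet it reached fewer windows than KO cisplatin. It had a peak in 39 windows (43.8%; 23.7% over all chromosomes) and KO cisplatin in 62 (69.7%; 51.1%). WT cisplatin reached 41 windows (46.1%; 33.4%) and WT pemetrexed 29 (32.6%; 24.4%). All 4 shares were above those over all chromosomes, so wider reach was not limited to one list. To reach 50% of a list's peaks, 6 windows were needed for KO pemetrexed, 8 for WT pemetrexed and 12 for either cisplatin list. This number also depends on the length of the list. Of the 45 WT pemetrexed peaks, 7 lay in the window at the long-arm edge of the peak-free stretch.

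Most KO pemetrexed windows also held KO cisplatin peaks, 36 of 39 here and 627 of 708 over all chromosomes, so this was not limited to chromosome 16. Both KO lists had peaks in 36 windows (40.4%; 21.0% over all chromosomes). KO cisplatin alone had peaks in 26 (29.2%; 30.1%) and KO pemetrexed alone in 3 (3.37%; 2.71%). The 26 windows with KO cisplatin alone held 61 of its 273 peaks (22.3%; 35.2% over all chromosomes), at most 6 in a window (27000001 to 28000000 and 85000001 to 86000000). The 3 with KO pemetrexed alone held 9 of its 541 peaks (1.66%; 3.34%), of which 7 lay at 31000001 to 32000000. Which list was longer also turned with place: KO pemetrexed had more peaks than KO cisplatin in 28 windows (31.5%; 12.7%) and fewer in 35. For the windows with fewer, no share over all chromosomes was computed, so whether this turn is particular to chromosome 16 is not known.

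Some stretches were empty in all lists. Of the 81 windows of the arms, 12 held no peak of any list, 2 on the short arm and 10 on the long arm, among them the 3 from 50000001 to 53000000. The longest stretch within an arm without a KO pemetrexed peak was 7793 kb (57284614 to 65077786), where KO cisplatin had 5 peaks and each WT list 2. For KO cisplatin the longest was 3949 kb (49834037 to 53782610), which was empty in every list. WT pemetrexed had a stretch of 7124 kb without a peak (49034473 to 56158634) that held 11 KO cisplatin peaks, and WT cisplatin one of 6668 kb (48659686 to 55327849) that held 9.

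KO pemetrexed peaks were also the widest. Median widths were 1295 bp in KO pemetrexed (interval of the median 1232 to 1381), 819 bp in KO cisplatin (783 to 852), 636 bp in WT cisplatin (607 to 670) and 596 bp in WT pemetrexed (566 to 630). Peaks of 2 kb or more numbered 161 of 541 in KO pemetrexed (29.8%, interval 25.9 to 33.8%), against 22.6% of that list over all chromosomes, and 8 of 273 in KO cisplatin (2.93%, 1.27 to 5.69%; 0.986% over all chromosomes). The WT cisplatin list had 0 of 85 (0.0554% over all chromosomes) and the WT pemetrexed list 0 of 45 (0% over all chromosomes). For these, 3 counts would be 3.53% and 6.67% of the peaks.

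The wide KO pemetrexed peaks were mostly at the tips. At the long-arm end the median was 2011 bp (quartiles 1152 and 3109) and 76 of 150 peaks (50.7%, interval 42.4 to 58.9%) reached 2 kb. At the short-arm end it was 1441 bp (1044 and 2578), and 66 of 189 (34.9%, 28.1 to 42.2%) did. In the interiors the median was 1045 bp (872 and 1410) and 18 of 180 (10%, 6.03 to 15.3%) reached 2 kb. KO cisplatin medians were 852 bp at the ends and 782 bp in the interiors, and 962 bp on the short-arm side (14 peaks) and 692 bp on the long-arm side (10 peaks) of the peak-free stretch. WT cisplatin peaks were 745 bp at the ends (quartiles 641 and 911) and 608 bp in the interiors (552 and 668), and WT pemetrexed peaks 596 and 588 bp.

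The 3 widest peaks of the lists lay in different places. For KO pemetrexed they were 13162 bp (88110736 to 88123898) and 13022 bp (88140028 to 88153050), both in the long-arm end, and 12550 bp (253001 to 265551) in the short-arm end. The peak of 13022 bp held a WT cisplatin peak, and the other two met no other list. For WT cisplatin they were 1392 bp (87058768 to 87060160) in the long-arm end, and 1213 bp (1078591 to 1079804) and 1137 bp (643239 to 644376) in the short-arm end, none of them met by another list. For KO cisplatin they were the peaks of 4407 and 2511 bp near the peak-free stretch and another of 2511 bp (82546419 to 82548930) in the long-arm interior. The widest peaks of KO pemetrexed and WT cisplatin thus lay at the tips, and those of WT pemetrexed beside the peak-free stretch.

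**Figure D4:**
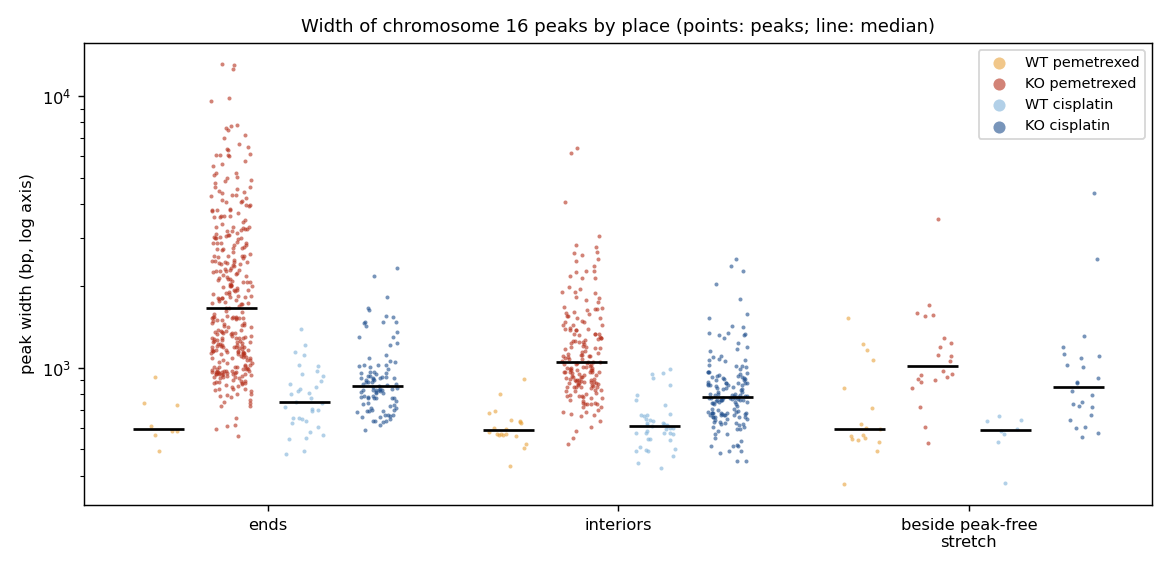
Width of every chromosome 16 peak (vertical axis, bp, log scale) by list at the ends, in the interiors and beside the peak-free stretch (horizontal axis), each point a peak and each line a median. KO pemetrexed peaks at the ends had a median of 1652 bp and reached 13162 bp, while its interior peaks had a median of 1045 bp.

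Number and width together gave KO pemetrexed most of the marked bases of the chromosome. Its peaks covered 1041 kb, or 1.18% of the span, and KO cisplatin 249 kb (0.281%). WT cisplatin covered 58.8 kb (0.0664%) and WT pemetrexed 29.9 kb (0.0338%). The ends held 785 kb of the KO pemetrexed bases, 7.85% of their length, and the interiors 230 kb, 0.391% of theirs. The KO over WT ratio of covered bases was 34.8 after pemetrexed and 4.24 after cisplatin, sums over peaks called separately in each library.

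Neighbouring peaks of a list were close together in KO pemetrexed. The median distance from a peak to the nearest other peak of its list was 4.80 kb in KO pemetrexed, 42.9 kb in KO cisplatin, 186 kb in WT cisplatin and 194 kb in WT pemetrexed. Within 100 kb of another lay 510 of 541 KO pemetrexed peaks (94.3%; 88.4% over all chromosomes) and 195 of 273 KO cisplatin peaks (71.4%; 57.1%). The WT lists had 28 of 85 (32.9%; 30% for WT cisplatin over all chromosomes) and 12 of 45 (26.7%; 12.6% for WT pemetrexed). A longer list has closer peaks, so these shares cannot be read across lists of unequal length.

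Within 10 kb the order of the WT lists turned. WT pemetrexed had 10 of 45 peaks this close to another (22.2%, interval 11.2 to 37.1%; 3.71% over all chromosomes). The WT cisplatin list, though longer, had 2 of 85 (2.35%, 0.286 to 8.24%; 4.16%). All 10 close WT pemetrexed peaks were those of the run at the edge of the peak-free stretch. KO pemetrexed had 353 of 541 (65.2%; 52.3%) and KO cisplatin 52 of 273 (19%; 16.1%).

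**Figure D5:**
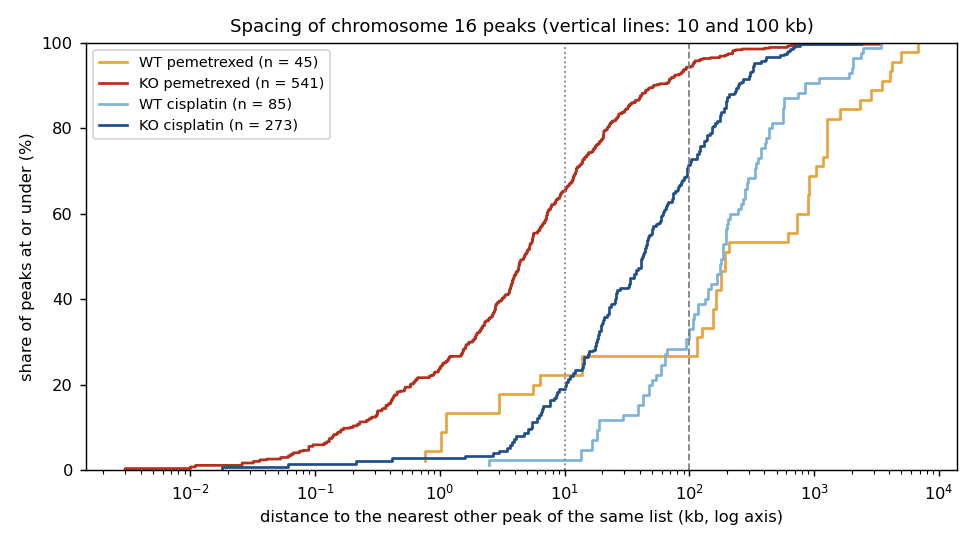
Cumulative share of chromosome 16 peaks (vertical axis, %) by distance to the nearest other peak of the same list (horizontal axis, kb, log scale), with vertical lines at 10 and 100 kb. At 10 kb the curve of KO pemetrexed stood at 65.2% and that of WT cisplatin at 2.35%, and WT pemetrexed, at 22.2%, lay above the longer WT cisplatin list there.

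Joined at 100 kb, the KO pemetrexed peaks formed a few long runs. The 541 peaks became 68 regions, of which 14 had 10 peaks or more and held 410 peaks (75.8%). The fullest run closed the long arm, with 97 peaks over 855 kb (87746526 to 88601861) that covered 283 kb of it. Within it lay 11 peaks of KO cisplatin, 6 of WT cisplatin and 0 of WT pemetrexed. The next opened the short arm, with 75 peaks over 1076 kb (25140 to 1101317), and held 18 peaks of KO cisplatin, 6 of WT cisplatin and 0 of WT pemetrexed. As WT pemetrexed had 0.508 peaks per Mb over the chromosome, a 0 in either run says little.

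The other long runs of KO pemetrexed were shorter. In the long-arm interior lay 27 peaks over 531 kb (66010567 to 66541872) and 27 over 543 kb (67878687 to 68421355), and on the short arm 26 over 389 kb (1207245 to 1596713). The fullest KO cisplatin run, 13 peaks over 457 kb (277605 to 734448), lay inside the KO pemetrexed run at the short-arm tip, where KO pemetrexed had 34 peaks over the same length. Another, 11 peaks over 466 kb (2437689 to 2903849), held 18 KO pemetrexed peaks. The 273 KO cisplatin peaks became 134 regions when joined, more than KO pemetrexed, and the KO ratio of pemetrexed to cisplatin turned from 1.98 (interval 1.71 to 2.30) to 0.507 (0.373 to 0.684). In WT cisplatin the fullest run had 4 peaks (4394328 to 4526321).

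Peaks of different lists seldom lay on the same bases, here as over all chromosomes. Those that did were mostly at the ends, where most KO pemetrexed peaks also lay. Of the 885 regions of the chromosome covered by any list, 829 were covered by 1 list, 55 by 2, 1 by 3 and 0 by all 4. Such regions were not counted over all chromosomes. There the computed shares of peaks meeting another list, by pair, ran from 1.09 to 7.32%, and those of KO peaks meeting a WT list were not computed. Of the KO cisplatin peaks, 43 of 273 (15.8%, interval 11.6 to 20.6%) met a KO pemetrexed peak by at least 1 bp, against 7.32% over all chromosomes. KO pemetrexed covered 1.18% of the span of chromosome 16 and 0.317% of that of all placed chromosomes. A peak here thus has more to meet, and the part of this in the difference was not tested. Of the KO pemetrexed peaks, 43 of 541 (7.95%, 5.81 to 10.6%) met a KO cisplatin peak, against 6.24%. Of those KO cisplatin peaks, 21 were in the short-arm end and 8 in the long-arm end. The ends also held 62.7% of all KO pemetrexed peaks and 785 of the 1041 kb these covered. The place of the overlaps is thus not set apart from where that list lies. Lists of one genotype could share a control library, which the sources used here do not give.

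The pairs of peaks that shared most bases show what such a place looks like. At the short-arm end a KO pemetrexed peak of 2004 bp (2708373 to 2710377) and a KO cisplatin peak of 1553 bp (2708892 to 2710445) shared 1485 bp. A KO pemetrexed peak of 2877 bp (276215 to 279092) contained a whole KO cisplatin peak of 1467 bp (277605 to 279072). KO pemetrexed peaks that met a KO cisplatin peak had a median width of 1701 bp (quartiles 1112 and 2684, 43 peaks) and the others 1283 bp (960 and 2243, 498 peaks). A wider peak has more bases to be met on, and the part of this in the difference was not tested.

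More WT cisplatin peaks met the KO pemetrexed list than the KO list of their own drug. Of 85, 12 met a KO pemetrexed peak (14.1%, interval 7.51 to 23.4%; 3.99% over all chromosomes) and 1 a KO cisplatin peak (1.18%, 0.0298 to 6.38%; 1.77%). At a reciprocal overlap of 50% the 12 were 4 (interval of the share 1.30 to 11.6%), which overlaps that of the 1 on KO cisplatin. Of the 12, 5 were in the short-arm end and 5 in the long-arm end. Among them was a WT cisplatin peak of 1024 bp (1515830 to 1516854) wholly within a KO pemetrexed peak of 6040 bp (1513947 to 1519987), and one of 1012 bp (4394328 to 4395340) within a peak of 1903 bp (4394040 to 4395943). KO pemetrexed covers 1041 kb of the chromosome against 249 kb for KO cisplatin, which gives it more bases to be met. It also covers 1.18% of the span here against 0.317% over all placed chromosomes, and KO cisplatin 0.281% against 0.141%. Shares above those over all chromosomes are therefore not read as extra coincidence of the lists. The counts by distance that follow include peaks that overlapped. On KO pemetrexed these were 12 WT cisplatin and 43 KO cisplatin peaks, and on KO cisplatin 1 WT cisplatin peak. Within 100 kb of a KO pemetrexed peak lay 66 of 85 WT cisplatin peaks (77.6%; 41.8% over all chromosomes), and within 100 kb of a KO cisplatin peak 52 (61.2%; 51.1%). Within 10 kb of KO pemetrexed lay 37 WT cisplatin peaks (43.5%; 17.1%) and 95 KO cisplatin peaks (34.8%; 20.2%), and within 10 kb of KO cisplatin 13 WT cisplatin peaks (15.3%; 12%).

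WT pemetrexed peaks met each other list once. One peak of 565 bp (30634426 to 30634991) lay inside a KO pemetrexed peak of 901 bp (30634270 to 30635171). Another of 908 bp (56158634 to 56159542) shared 666 bp with a KO cisplatin peak of 1013 bp (56158876 to 56159889), and the third was the pair at the edge of the peak-free stretch. Each is 1 of 45 peaks (2.22%, interval 0.0563 to 11.8%), beside 1.42%, 1.2% and 1.09% over all chromosomes for KO pemetrexed, KO cisplatin and WT cisplatin. Within 10 kb lay 6 near WT cisplatin (13.3%; 4.8%), of which 5 were in the run at the edge near its 1 WT cisplatin peak, 8 near KO pemetrexed (17.8%; 6.66%) and 4 near KO cisplatin (8.89%; 8.52%). Of the 45, 22 (48.9%; 61.2% over all chromosomes) lay in windows with no KO pemetrexed peak, 7 of them in the window of the run. Of the 85 WT cisplatin peaks 12 (14.1%; 36.5%) did. KO pemetrexed had 6.11 peaks per Mb on this chromosome and 1.87 over all placed chromosomes, which bears on these shares.

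One place on the chromosome was covered by 3 lists. It spanned 1232 bp of the long-arm end (87931342 to 87932574) and held a WT cisplatin peak of 702 bp (87931670 to 87932372), a KO cisplatin peak of 644 bp (87931694 to 87932338) and a KO pemetrexed peak. It lay inside the KO pemetrexed run of 97 peaks. A second region, 3955 bp long (87927384 to 87931339), held WT cisplatin and KO pemetrexed and ended 3 bp before it. WT pemetrexed had no peak in that run.

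The KO pemetrexed peaks of chromosome 17 and chromosome 19, which also held many peaks, are the closest comparison. Their outer 5 Mb of both ends, 12.7% and 15.8% of the spans, held 265 of 639 peaks on chromosome 17 (41.5%, interval 37.6 to 45.4%) and 331 of 751 on chromosome 19 (44.1%, 40.5 to 47.7%). On chromosome 16 the same ends were 11.3% of the span and held 62.7% (58.4 to 66.8%). For KO cisplatin the shares were 36.3% (30.6 to 42.3%) on chromosome 16, 28.9% (23.8 to 34.4%) on 17 and 24.9% (20.4 to 29.9%) on 19. In density chromosome 16 was the lower one, with 6.11 KO pemetrexed peaks per Mb against 8.14 and 11.8. Peaks in a run are not independent, so the intervals are too narrow and no test of these differences was made.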

How the data were processed

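γH2AX ChIP-seq was analysed for 4 drug-treated DLD1 libraries, 1 per group, with groups taken from the sample titles. The deposited lists give peak starts and ends in bp and nothing else, per the file headers. Bowtie (no version) and MACS 1.4 are named with build hg18, per the submitters' processing notes. The control library, threshold and filters were not given in the sources used here. Read depth is unknown, and a deeper library can gain more and wider peaks. Positions are printed as listed, and whether starts count from 0 is not given.

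Peaks were placed by midpoint in 1 Mb windows and in stretches bounded by the lists' own positions. Ratios and shares have exact (Clopper-Pearson) 95% intervals, ratios of ratios conditional exact ones, and medians order-statistic ones. Overlap needed 1 bp. Values were computed with Python 3.11.15, numpy 2.4.6, pandas 2.3.3 and scipy 1.17.1, and the functions were tested on simulated data.

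Named places followed a rule: the 3 widest peaks per list, the fullest windows, the first and last peaks, the fullest runs, the longest empty stretches, all places in 3 lists and the 2 largest overlaps per pair. The members and rules were chosen with earlier results of these data known. Further runs, the window at 57000001, the outermost 1 Mb and the sections at 5000001 to 8000000, 30000001 to 32000000 and 65000001 to 69000000 were chosen after the window counts were seen. Stricter score thresholds could not be applied, as the lists give no score. A minimum width of 600 bp was used instead, which does not stand in for a score. It kept 19 of 45 WT pemetrexed and 54 of 85 WT cisplatin peaks. Of the KO lists it kept 535 of 541 pemetrexed and 254 of 273 cisplatin peaks. This unequal loss raises KO over WT ratios over the chromosome by construction. The gene and promoter tables at hand are for another build and were not used.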

Additional observations from a re-analysis of the deposited data

Results flagged for a closer look

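The change in peak numbers from WT to KO was compared between the drugs, as the pemetrexed ratio over the cisplatin ratio with its exact interval, for the whole chromosome and for each stretch. Values whose interval excluded 1 are given here. For the whole chromosome the value was 3.74 (interval 2.496 to 5.66), for the short-arm end 8.48 (3.10 to 27.0), for the long-arm interior 3.52 (1.53 to 8.67) and for the long-arm end 40.2 (8.76 to 379). At the long-arm side of the peak-free stretch it was 0.0822 (0.00614 to 0.618), in the opposite direction, on 2 KO and 11 WT pemetrexed peaks of which 10 were 1 run. The first peak of that run also set the edge from which this side was drawn, so its interval is not a check of the reversal. Without peaks within 100 kb of an edge, the pemetrexed KO over WT ratio there was 2.0 (0.104 to 118). The intervals cover counting error between single libraries only. In the short-arm interior and on the short-arm side of the peak-free stretch the intervals held 1, with values of 1.60 (0.635 to 4.21) and 0.953 (0.166 to 4.93).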

How the results depend on the processing

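No paired analysis was possible because every group is a single library, and for the same reason no replicate could be left out. For 41 results, 158 values were computed under other settings. Of these, 103 had the same direction and call or stayed within the interval (counts within 1.5 times). The cause was not tested for the others, apart from joining, which leaves fewer regions by construction. The other settings for the ratios by stretch and the removal of peaks within 100 kb of an edge were added after the data were seen.

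With peaks within 100 kb joined, the ratio of the KO over WT ratios was 0.986 and the KO pemetrexed over cisplatin ratio 0.507; with peaks within 10 kb joined the latter was 1.17. Without the first and last 5 Mb these were 1.57 and 1.16, and the WT pemetrexed over cisplatin ratio was 0.740. By stretch, the pemetrexed KO over WT ratio on the short-arm side of the peak-free stretch was 0.6 with peaks within 100 kb joined and 0 with sides of 2 Mb, and on the long-arm side 2.0 without peaks within 100 kb of an edge.

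The share at both ends, taken at 2 Mb, was 2.22% in WT pemetrexed, 21.2% in WT cisplatin, 42.7% in KO pemetrexed and 16.8% in KO cisplatin. It was 53.7% in WT cisplatin with peaks of at least 600 bp. In KO pemetrexed it was 49.7% with peaks joined within 10 kb and 23.5% within 100 kb, and in KO cisplatin 20.1% within 100 kb. The share beside the peak-free stretch in WT pemetrexed was 20.0% with peaks within 100 kb joined and 17.6% without those near an edge. At 2 Mb it was 3.53% in WT cisplatin, 0.185% in KO pemetrexed and 2.20% in KO cisplatin, and joining within 100 kb gave 7.35% in KO pemetrexed.

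Allowing 10 kb between peaks, 6 WT pemetrexed peaks met WT cisplatin, 8 KO pemetrexed and 4 KO cisplatin, 37 WT cisplatin peaks met KO pemetrexed and 13 KO cisplatin, and 95 KO cisplatin peaks met KO pemetrexed. A reciprocal overlap of 50% left 4 WT cisplatin and 15 KO cisplatin peaks on KO pemetrexed. With peaks of at least 600 bp, 0 WT pemetrexed peaks met WT cisplatin and 0 met KO pemetrexed. With peaks joined within 10 kb, 2 WT cisplatin regions met KO cisplatin.

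The share of peaks near another at 10 kb was 2.35% in WT cisplatin, 65.2% in KO pemetrexed and 19% in KO cisplatin. At 1 Mb it was 68.9% in WT pemetrexed, 90.6% in WT cisplatin and 99.6% in both KO lists. Median width without the ends was 602 bp in WT cisplatin and 1045 bp in KO pemetrexed, and 1622 bp in KO pemetrexed with peaks joined within 10 kb.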
